A study of Bos taurus with 16 samples.

Results

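The transcripts described here are those of 7 maternal effect genes of the subcortical maternal complex and its relatives in bovine (Bos taurus) oocytes and embryos: OOEP, NLRP5, TLE6, PADI6, NLRP2, NLRP8 and NLRP9. They were chosen by name among 27393 loci of the deposited read-count table, and of loci that share a name, only that with the highest average value was kept. The 7 names were found on 9 loci, because NLRP8 and TLE6 have 2 loci each. The study profiled single mature oocytes and single embryos that matured and developed in vivo, with 2 samples at each of 8 stages. The stages were mature oocytes (MII), 2-cell (2C), 4-cell (4C), 8-cell (8C) and 16-cell (16C) embryos, early morulae (EM), compact morulae (CM) and blastocysts (BL). No sample carried a treatment or a genetic change, and the labels give neither breed nor age nor the cow behind each sample, so p-values measure the spread between these samples only. RNA of each oocyte or embryo was amplified in 2 rounds before sequencing. Embryonic genome activation (EGA) of in vivo embryos is placed by the study between the 4C and 8C stages, so MII, 2C and 4C (6 samples) are called before EGA and the other 10 samples after EGA.

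The subcortical maternal complex is a large assembly of proteins that lies beneath the plasma membrane of the mammalian oocyte and of the cleaving embryo. Its mRNAs are made while the oocyte grows, are stored, and are lost as the embryo begins to transcribe its own genome, whereas the proteins persist longer. Female mice that lack a core member ovulate, but their embryos stop dividing early, which is why such genes are called maternal effect genes.

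Levels are given in CPM (reads of a locus divided by all reads of the sample, in units of 1000000). These levels ignore gene length. They can be compared between samples for a gene but do not rank genes by molecules. Between 607672 and 3379426 reads were recovered per sample, and 3 reads, taken here as the smallest detectable number, corresponded to 0.888 to 4.94 CPM. Of 9 oocyte markers 8 had reads before EGA, with sums of 295 to 861 CPM, while BMP15 was listed at 0. Of 8 markers of cumulus and granulosa cells 7 had reads, with sums of 564 to 1992 CPM before EGA and 384 to 877 CPM after it. Most of those reads lay on STAR and HAS2. AMH was listed at 0, and PTX3 and TNFAIP6 had at most 4 and 2 reads in any sample. The 8 blastocyst lineage markers summed to 145 to 326 CPM before EGA and to 4676 and 4852 CPM in the BL samples, although CDX2, a defining trophectoderm marker, had no read in either BL sample. POU5F1 alone gave 3580 CPM in BL replicate 1 and 3461 CPM in replicate 2, and was already at 5926 and 2727 CPM in 8C. KRT8, KRT18, GATA2, GATA3 and NANOG were higher in both BL samples than in any sample before EGA, while SOX2 in BL lay within its range before EGA. The share of other cell types in the values of the 7 genes was not tested.

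**Figure D1:**
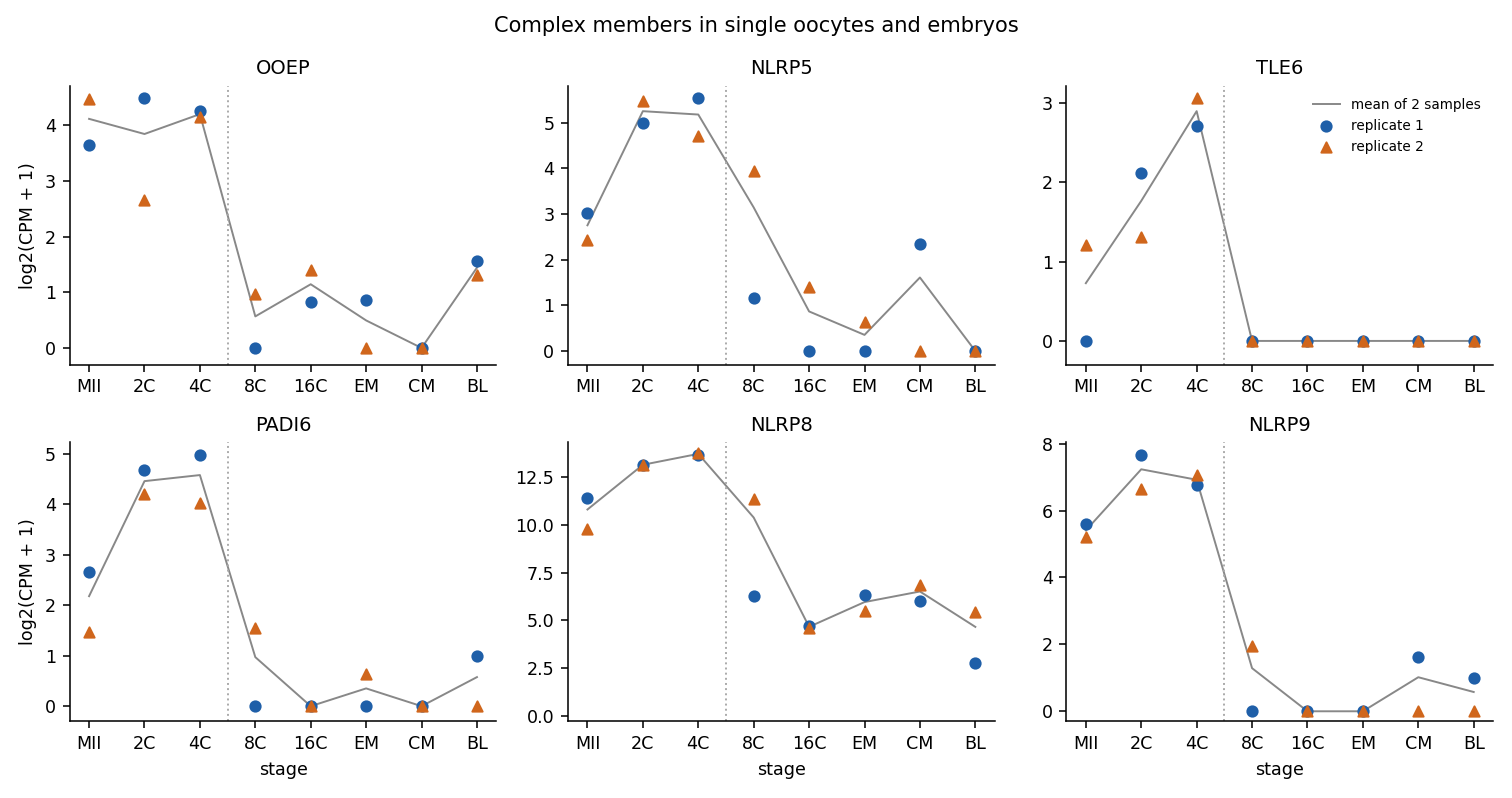
Levels of 6 of the 7 genes in each of the 16 samples, as log2(CPM + 1) on a scale of its own in each panel, by stage. Circles and triangles are the 2 samples of a stage, the line joins the stage means, and the dotted line marks EGA. NLRP8 reached 14134 CPM in a 4C embryo, TLE6 had no read from 8C on, and the 2 8C samples lay farthest apart for NLRP8 and NLRP5. NLRP2 was listed at 0 throughout and is not drawn.

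Reads were found for 6 of the 7 genes. In the model of 8 stages 5 of them (OOEP, NLRP5, PADI6, NLRP8 and NLRP9) had enough reads to be tested, and each differed between stages by limma's moderated F test (adjusted p between 2.31e-06 and 3.98e-04). Of all 9670 loci tested, 66.7% did so too. Values are shares of the reads of a sample, so fewer molecules of a transcript cannot be told apart from more of all others, and in embryos of several cells a change in the number of cells cannot be told apart from a change per cell.

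OOEP (XLOC_070363) encodes a small protein with a KH-like domain that joins the core of the complex. Its level was 11.5 and 21.0 CPM in the MII samples, 21.3 and 5.33 CPM in 2C, and 18.1 and 16.6 CPM in 4C. It had no read in 8C replicate 1 and 1 read in replicate 2. From 16C to BL the 8 samples held 6 reads together, and none exceeded 1.96 CPM. The samples before EGA (5.33 to 21.3 CPM) therefore did not overlap those after it.

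NLRP5 (XLOC_024401), also called MATER, is a NOD-like receptor family protein and the scaffold of the core. It stood at 7.09 and 4.38 CPM in MII, at 30.6 and 43.5 CPM in 2C, and at 45.1 and 25.2 CPM in 4C. The 8C samples held 1.24 and 14.4 CPM, from 1 and 15 reads. Later samples held 6 reads in all, 4 of them in CM replicate 1. The 8C sample with 14.4 CPM was above both MII samples, so the samples before and after EGA overlapped for NLRP5.

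TLE6 (XLOC_063809), a relative of the Groucho corepressors, is the remaining protein of the core. It had 33 reads in all: the MII samples showed 0 and 1.31 CPM, the 2C samples 3.33 and 1.48 CPM and the 4C samples 5.56 and 7.37 CPM. No read was found in any of the 10 samples after EGA. The pooled level before EGA was 9.56-fold a floor of 3 reads over those 10 samples together. The counting error of the 33 reads is not part of this value. The other TLE6 locus (XLOC_074807) was listed at 0 in all samples.

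PADI6 (XLOC_030898) belongs to the peptidylarginine deiminases and is needed for the cytoplasmic lattices of the oocyte. It was measured at 5.32 and 1.75 CPM in MII, 24.6 and 17.5 CPM in 2C, and 30.6 and 15.4 CPM in 4C. The 8C samples showed 0 and 1.92 CPM, and the 8 later samples held 2 reads together. MII replicate 2, with 4 reads, lay just below 8C replicate 2, with 2 reads, in CPM but above it in the deposited values (4.25 against 2.29), whereas the 2C and 4C samples lay above every sample after EGA.

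NLRP8 (XLOC_025056), an oocyte-enriched NLRP gene, took far more reads than the other members. It stood at 2708 and 902 CPM in MII, at 9228 and 9150 CPM in 2C and at 13209 and 14134 CPM in 4C, although no step among these stages passed the test. The MII samples differed from each other far more than the 2C or the 4C samples did. In 4C replicate 2, 1.41% of all reads lay on NLRP8 (95% Wilson interval 1.40 to 1.43%), which made it the locus with the third most reads of that sample. Its rank was 6 to 8 in the 2C samples and in 4C replicate 1, but 55 and 130 in MII. After EGA the 8C samples held 78.0 and 2618 CPM, and the 16C, EM, CM and BL samples 25.5 and 23.0, 79.3 and 43.2, 64.6 and 116, and 5.89 and 42.6 CPM. Alone among the members, NLRP8 had reads in each of the 10 samples after EGA, with a minimum of 6 in BL replicate 1. It had 94981 reads before EGA, against 33 to 1194 for the other members with reads. Whether these kept a like share after EGA could mostly not be seen at this depth.

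Another locus of the name NLRP8 (XLOC_024400) had 707 reads, against 98249 on the leading locus. It showed 7.01 to 103 CPM before EGA, 0 and 52.9 CPM in 8C, and 3 reads in all later samples. In the samples before EGA it held 0.474 to 0.870% as many reads as the leading locus, and 2.02% in 8C replicate 2. How reads that map to several places were counted is not given in the sources used here, so reads of near-identical NLRP copies may be split between loci.

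NLRP9 (XLOC_025013), another NLRP gene of the oocyte, had 47.0 and 35.9 CPM in MII, 200 and 98.8 CPM in 2C and 108 and 132 CPM in 4C. It had no read in 8C replicate 1 and 3 reads in replicate 2, and 3 reads over the 8 later samples. No sample after EGA came near the lowest value before it, 35.9 CPM.

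NLRP2 (XLOC_073014), whose protein also localizes to the complex in other mammals, was listed at 0 in all 16 samples. Its locus lies in a run of 2578 consecutively numbered loci that were all listed at 0, when the next longest run had 98. The other TLE6 locus and the oocyte marker BMP15 lie in the same run. The value of NLRP2 is therefore given as listed and is not read as absence.

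The order of the stages differed among the members. NLRP5 and NLRP9 had their highest mean in 2C (37.1 ± 9.11 and 150 ± 71.8 CPM, SD, n = 2), followed by 4C (35.2 ± 14.1 and 120 ± 16.8 CPM), and the samples of these stages overlapped. NLRP8, PADI6 and TLE6 were highest in 4C, at 13672 ± 654, 23.0 ± 10.7 and 6.46 ± 1.29 CPM, with 2C next. For PADI6 the 2C and 4C samples overlapped, whereas for NLRP8 and TLE6 they did not. OOEP had means of 16.3 ± 6.73, 13.3 ± 11.3 and 17.3 ± 1.03 CPM in MII, 2C and 4C, and all 3 stages overlapped. In the deposited values, which the tests used, the OOEP means were 37.5, 15.9 and 23.0, with MII highest, and those of NLRP5 were 45.0 in 2C and 46.6 in 4C, so both orders depended on the scaling. For NLRP5, NLRP8, NLRP9 and PADI6 both MII samples lay below both 2C samples in CPM and in the deposited values. For TLE6 this held in CPM only, where MII replicate 2 had 3 reads and 2C replicate 2 had 5. The MII samples had fewer loci with reads (9736 and 8893) than the 2C samples (10979 and 12176). How many of all loci lay lower in MII in this way was not counted, so the order is not read as a trait of these genes.

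Whether the differences from MII were larger than the spread was tested by limma in the model of 8 stages. In 2C against MII the log2 difference was 1.74 (SE 0.99) for NLRP5, 1.71 (SE 0.80) for PADI6, 1.66 (SE 1.15) for NLRP8, 0.88 (SE 0.85) for NLRP9 and -1.35 (SE 0.80) for OOEP. With a sample left out these moved between 0.98 and 2.34 for NLRP8, between 0.40 and 1.36 for NLRP9, between 1.11 (without MII replicate 2) and 2.31 for PADI6 and between -2.25 and -0.45 for OOEP. Scaled by total reads they were 2.55 for NLRP5 and NLRP8, 2.46 for PADI6, 1.76 for NLRP9 and -0.50 for OOEP. As scaled by the authors none of the 5 passed the test (adjusted p at least 0.299, limma), PADI6 alone had an unadjusted p under 0.05, and edgeR called none. DESeq2 gave an adjusted p for 3 of them (NLRP5, NLRP8 and NLRP9) and called none of these. Over all loci 1.42% were called in either direction in this step. In 4C against 2C the differences lay between -0.10 for NLRP9 and 0.76 for OOEP, and none of the 5 members had an unadjusted p under 0.05 or was called by edgeR or DESeq2. Of all 9670 loci 0% were called in this step by limma, with 441 under 0.05 unadjusted, 0 called by edgeR and 1 by DESeq2.

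The comparison of 4C with MII was added after the values had been seen. Differences were 2.36 (SE 1.15) for NLRP8, 1.90 (SE 0.80) for PADI6, 1.76 (SE 0.99) for NLRP5 and 0.77 (SE 0.85) for NLRP9. OOEP gave -0.59 (SE 0.80), which turned to 0.14 when samples were scaled by total reads and moved between -1.12 and -0.06 with a sample left out. No member was called by limma, edgeR or DESeq2, PADI6 again had an unadjusted p under 0.05, and 8.68% of all loci were called by limma. PADI6 was called (adjusted p = 0.0413, limma) with a pseudocount of 5. The median log2 difference of all loci against MII was 0.15 for 2C and 0.15 for 4C as scaled by the authors, and 0.77 and 0.68 when scaled by total reads.

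**Figure D2:**
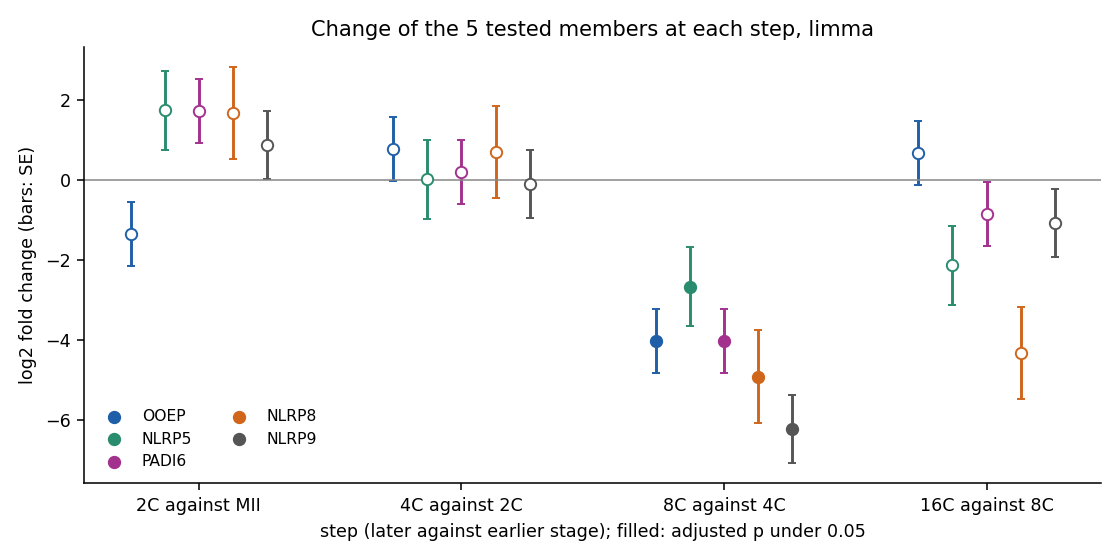
Log2 difference of the 5 tested genes at each step between neighbouring stages, by limma on log2(deposited value + 1), with the SE as bars. Filled points had an adjusted p under 0.05. All 5 points are filled and below 0 in 8C against 4C, from -2.68 for NLRP5 to -6.24 for NLRP9, and no point is filled at the other 3 steps.

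Between 4C and 8C all 5 tested members fell. OOEP, PADI6 and NLRP9 had at most 3 reads in any sample after EGA, so only their samples before EGA let them be tested. A fall was therefore nearly fixed in advance for these genes. The log2 difference was -6.24 (SE 0.85, adjusted p = 0.000124) for NLRP9 and -4.92 (SE 1.15, adjusted p = 0.00452) for NLRP8 by limma. The differences of OOEP and PADI6 were -4.03 (SE 0.80, adjusted p = 0.00160) and -4.04 (SE 0.80, adjusted p = 0.00153, limma), sizes that depend on the added 1 since the 8C samples held at most 2 reads of either. Of the 5, NLRP5 changed least, by -2.68 (SE 0.99, adjusted p = 0.0445, limma). Of all loci 19.1% were called lower in this step and 17.7% higher, 1849 and 1711 loci by limma, while edgeR called 1083 lower and 1656 higher.

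The call for NLRP5 rested on a narrow margin. Its adjusted p was 0.133 by edgeR, 0.168 by DESeq2, 0.0634 when scaled by total reads and 0.0526 with the replicate number as a replicate block. It was lost in 18 of 26 alternatives, in most of them with the difference unchanged at -2.68. The difference itself moved to -2.26 and -3.09 without 4C replicate 1 or 2 (adjusted p = 0.208 and 0.0939, limma), to -1.33 without 8C replicate 1 (0.365) and to -4.03 without 8C replicate 2 (0.00761). For NLRP8 the call was lost without 8C replicate 1, where the difference was -2.54 (adjusted p = 0.0675, limma), and with the 2 stages fitted alone (adjusted p = 0.142). Its difference was -7.30 without 8C replicate 2, -3.39 by edgeR and -3.48 by DESeq2. PADI6 lost its call only with the 2 stages fitted alone (adjusted p = 0.0699, limma), and NLRP9 and OOEP kept theirs in all 26 alternatives.

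The 2 embryos of the 8C stage held NLRP8 and NLRP5 to unequal degrees. For NLRP8, replicate 1 kept 0.570% of the mean 4C level of NLRP8 and replicate 2 kept 19.2%. Exact 95% Poisson intervals, which cover the counting error of the 8C sample only, were 0.438 to 0.729% and 18.4 to 19.9%. Within replicate 2 the members were also unequal. NLRP9 stood at 2.40% of its 4C mean (0.495 to 7.01%), OOEP at 5.55% (0.141 to 30.9%) and PADI6 at 8.38% (1.01 to 30.3%), but NLRP5 at 41.0% (23.0 to 67.7%), against 3.52% (0.0891 to 19.6%) in replicate 1. For NLRP9, OOEP and PADI6 the intervals of the 2 embryos overlapped, and TLE6 had no read in either. The interval of NLRP9 overlapped neither that of NLRP8 nor that of NLRP5, whereas those of OOEP and PADI6 were too wide to place. The other NLRP8 locus stood at 62.1% (46.8 to 80.8%). The 9 oocyte markers summed to 3.71 CPM in replicate 1 and 127 CPM in replicate 2, against at most 49.4 CPM in the 8 later samples, and the blastocyst lineage markers to 5960 and 2813 CPM. Of the blastocyst sums POU5F1 alone gave 5926 and 2727 CPM, while NANOG went the other way, at 4.95 and 71.2 CPM. The relation of the marker sums to the member levels was not tested.

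**Figure D3:**
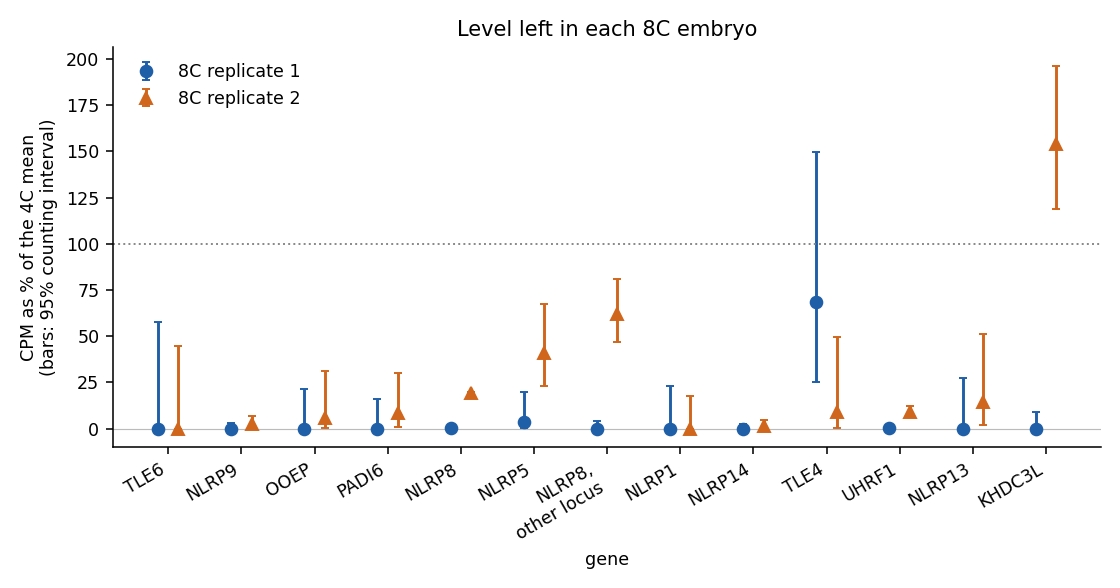
Level in each 8C sample as a percent of the mean level of the 4C samples, with exact 95% Poisson intervals of the 8C reads as bars. Drawn are 6 members, the other NLRP8 locus and the 6 related genes with at least 20 reads in 4C. In replicate 1 TLE4 stood at 68.7% and no other gene above 3.52%, while replicate 2 ranged from 0 for TLE6 and NLRP1 to 154% for KHDC3L, with TLE4 at 8.90%.

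From 8C to 16C no member passed the test by limma or edgeR. NLRP8 gave -4.34 (SE 1.15, adjusted p = 0.0790, limma) and NLRP5 -2.14 (SE 0.99, adjusted p = 0.278, limma), both with an unadjusted p under 0.05. DESeq2, which gave an adjusted p for NLRP8 and NLRP9 only, called NLRP8 (-5.78, adjusted p = 7.91e-05), as did limma without 8C replicate 1 (-6.72, adjusted p = 0.00141). Without 8C replicate 2 the difference of NLRP8 was -1.95 (adjusted p = 0.363, limma). NLRP5 gave -3.49 (adjusted p = 0.0528) and -0.79 (adjusted p = 0.799, limma) without 8C replicate 1 or 2. Of all loci 0.858% were called by limma in this step, 0 by edgeR and 152 by DESeq2.

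Over the whole of EGA, limma compared the 6 samples before with the 10 after. NLRP8 was lower after EGA by a log2 difference of -7.00 (SE 0.86, adjusted p = 3.99e-07) and NLRP9 by -6.61 (SE 0.45, adjusted p = 1.33e-10), and 29.9% of the 6910 loci in this fit were called lower by limma. OOEP, NLRP5, TLE6 and PADI6 did not pass the filter on low counts of this fit. In a fit of every locus with a read, given for these members after their read numbers had been seen, they differed by -3.79 (SE 0.49), -3.93 (SE 0.64), -2.06 (SE 0.39) and -3.88 (SE 0.51). The largest of these adjusted p values was 2.36e-04 for TLE6 (limma), and 20.2% of 18318 loci were called lower. An exact two-sided permutation of the 6 against 10 samples gave p = 0.000125 for NLRP9, OOEP and PADI6, the smallest that 8008 splits allow, 0.000250 for NLRP8, 0.000375 for NLRP5 and 0.00137 for TLE6. These splits, like the limma fit of 2 periods, treat samples as independent although the 2 samples of a stage share that stage. Splits of whole stages could not give p-values this small. For NLRP8 the difference was -4.97 by edgeR and -4.91 by DESeq2, and for NLRP9, with 6 reads after EGA, -7.75 by edgeR, -7.85 by DESeq2, and -7.39 and -4.66 by limma with a pseudocount of 0.5 or 5. Leaving out both 8C samples kept NLRP8 and NLRP9 called.

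Partners of the complex were looked up from a list of 5. KHDC3L, a KH-domain protein of the complex, NLRP14 and UHRF1, proteins linked to the cytoplasmic lattices, and CFL1, an actin-binding protein that interacts with the complex, had reads, and ZBED3 was listed at 0. NLRP14 (XLOC_017553) showed 70.9 to 187 CPM before EGA and at most 4.98 CPM after it. UHRF1 (XLOC_063773) showed 341 to 573 CPM before EGA and at most 40.4 CPM after it, that value in 8C replicate 2. From 4C to 8C their log2 differences were -6.72 (SE 0.76, adjusted p = 2.59e-05) and -5.68 (SE 1.05, adjusted p = 9.83e-04) by limma. They were the 2 of 4 tested partners called at this step. CFL1 (XLOC_048957) had 10 reads before EGA and 46 after it, at most 2.66 and 9.82 CPM, and its difference from 4C to 8C of 0.55 (SE 1.01, adjusted p = 0.696, limma) did not pass.

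KHDC3L (XLOC_070081) was lower than in 4C in 8C replicate 1 but not in replicate 2. Its level was 39.9 and 51.7 CPM in MII, 61.9 and 28.7 CPM in 2C, and 37.5 and 43.6 CPM in 4C. In 8C it was 0 CPM in replicate 1 and 62.5 CPM, from 65 reads, in replicate 2, and the 8 later samples held 2 reads together. The difference between 4C and 8C did not pass the test (-2.65, SE 1.36, adjusted p = 0.138, limma), and it was -0.39 by edgeR and -0.52 by DESeq2, which do not average log values. In the RefSeq annotation of assembly ARS-UCD2.0, which may not be the build of the deposited loci, KHDC3L and OOEP are direct neighbours. In 8C replicate 2 the 2 neighbours stood at 154% (119 to 196%) and 5.55% of their 4C means. The oocyte marker NPM2 also stood higher in that sample, at 25.0 CPM, than in the 4C samples (13.2 and 12.9 CPM), with 0 CPM in 8C replicate 1.

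Of 9 other NLRP genes looked up, 5 were found and 3 were tested. NLRP13 (XLOC_025055), which lies next but one to NLRP8 in that annotation, as NLRP5 does on the other side, had 8.33 to 26.6 CPM before EGA, 0 and 1.92 CPM in 8C and 17.0 and 6.58 CPM in 16C. From 4C to 8C it was called lower by limma (-3.39, SE 0.89, adjusted p = 0.00894) but not by edgeR (adjusted p = 0.0589) or DESeq2 (adjusted p = 0.0607), and the difference of 2.91 from 8C to 16C did not pass (adjusted p = 0.121, limma). NLRP1 (XLOC_027129) had no read in MII, 4.66 to 20.8 CPM in 2C and 4C, and none from 8C on. It was called higher in 2C than in MII by limma (3.50, SE 0.68, adjusted p = 0.0244) but not by edgeR (adjusted p = 0.116). It fell from 4C to 8C by limma (-4.44, SE 0.68, adjusted p = 2.76e-04) and edgeR (adjusted p = 0.0262), and DESeq2 gave it no adjusted p at either step. NLRP12 (XLOC_025008), linked to innate immune signalling, went the other way, from no read in the 6 samples before EGA to 16.1 and 40.4 CPM in 8C. It stood at 13.9 and 4.94 CPM in 16C, 6.54 and 1.66 CPM in EM, 0 and 2.86 CPM in CM and 21.6 and 27.9 CPM in BL. Its rise from 4C to 8C was 5.11 (SE 0.91, adjusted p = 7.95e-04, limma) and was also called by edgeR and DESeq2. NLRP3 had 3 reads in all, NLRP6 was listed at 0 in the same run as NLRP2, and NLRP4, NLRP7, NLRP10 and NLRP11 were not found by name.

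**Figure D4:**
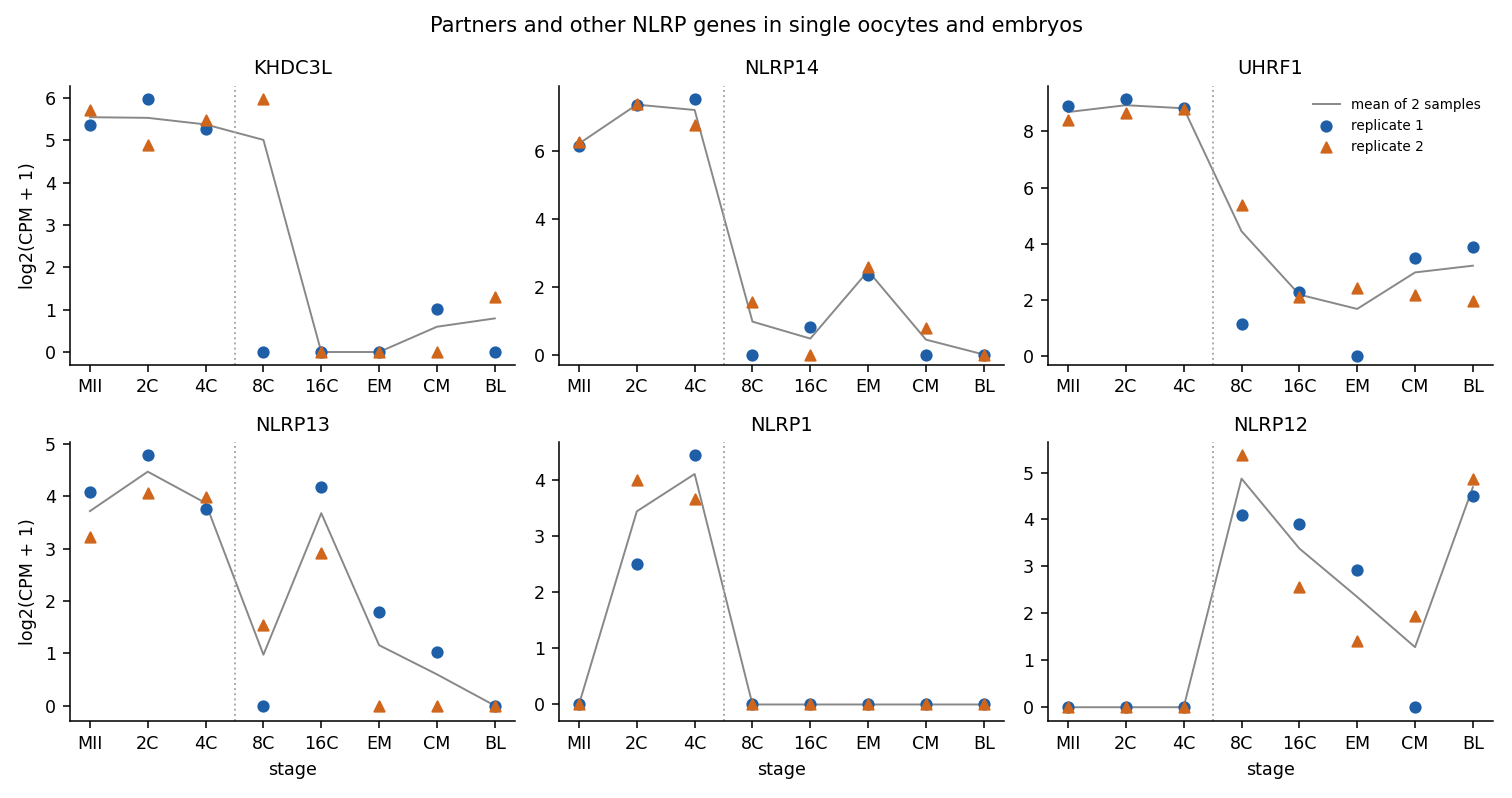
Levels of 3 partners and 3 other NLRP genes in each of the 16 samples, as log2(CPM + 1) on a scale of its own in each panel, by stage. Symbols and lines are as for the members. KHDC3L stayed at 62.5 CPM in 8C replicate 2, NLRP13 showed 17.0 and 6.58 CPM in 16C, and NLRP12 had reads only from 8C on.

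Relatives of PADI6 and TLE6 were looked up as well. PADI1, PADI2, PADI3 and PADI4 had 1 to 2 reads each over all samples, against 185 for PADI6, and were not tested. In the ARS-UCD2.0 annotation PADI4 and PADI3 directly follow PADI6. Of the other TLE genes, TLE1, TLE3, TLE4 and TLE5 were tested and none was called from 4C to 8C by limma, TLE1 alone having an unadjusted p under 0.05. TLE4 (XLOC_066969) had 1.77 and 2.63 CPM in MII, 5.99 and 16.6 CPM in 2C, 6.25 and 15.4 CPM in 4C, 7.42 and 0.962 CPM in 8C and at most 4.94 CPM later. In the fit of every locus with a read it was lower after EGA (-1.62, SE 0.55, adjusted p = 0.0224, limma), the same direction as TLE6, while TLE1 (2.37) and TLE3 (2.39) were called higher. TLE3 (XLOC_004038) was at most 1.84 CPM before EGA and reached 113 and 98.3 CPM in BL, whereas TLE6 had no read there. TLE2, the direct neighbour of TLE6 in that annotation, was listed at 0 in the same run as NLRP2.

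Likeness of patterns was measured as the root mean square difference of log2(deposited value + 1), each gene centred on its mean over the 16 samples, where 0 means parallel profiles. Among the 10 pairs of tested members NLRP5 and PADI6 were most alike at 0.916, and NLRP8 and OOEP least alike at 2.66. Genes with few reads have a compressed log2 range, so some of this distance may follow the read number, which was not tested. Among 9670 loci the named genes closest to each member were C26H10orf90 (0.700) and FOXO1 (0.710) for NLRP5, SFRP1 (0.943) and ASPHD1 (1.10) for NLRP8, and KIAA1244 (0.405) and CHL1 (0.731) for NLRP9. USP28 (0.539) and SGCD (0.560) were closest to OOEP, and PLXND1 (0.370) and CDC6 (0.513) to PADI6. The median over all loci was 2.35 to 4.12 for these members. The genes closest to a member were in each case other genes than the members and partners.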

How the data were processed

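The deposited table gives 1 signal value for each locus and sample. The authors had trimmed, mapped and counted SOLiD reads and then scaled the read counts to a common size with 1 factor a sample. The submitters' processing notes list cutadapt, FastQC, TopHat, Cufflinks and HTSeq without versions, and the genome build is not given in the sources used here. In every sample 100% of the non-zero deposited signal values were whole multiples of the smallest (tolerance 0.01), so reads were recovered. Floors and intervals cover counting error only, since amplified copies were not told apart.

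Stages and periods were compared with limma 3.58.1 under R 4.3.3 (empirical Bayes with trend) on log2(deposited value + 1), which understates changes of low genes, with Benjamini-Hochberg adjustment over all 9670 loci (8 stages) or 6910 loci (2 periods) kept by filterByExpr, at 0.05. Alternatives were edgeR 4.0.16 and DESeq2 1.42.0 on recovered reads, other scalings, pseudocounts and filters, a replicate block, samples left out, stages fitted alone and summed loci. The script was tested on simulated data. The genes and lists were chosen with earlier results of these data known. All 7 genes are named, with every listed relative that was found and the 2 named loci of closest pattern. Names came from the table. KHDC3L and NLRP14 were matched by an older symbol and a gene ID from RefSeq (ARS-UCD2.0). Levels and permutations used Python 3.11.15, numpy 2.4.6, scipy 1.17.1 and pandas 2.3.3, and figures matplotlib 3.10.9. Sequences and coding lengths were not used here.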

Additional observations from a re-analysis of the deposited data

Results flagged for a closer look

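Among the 10 samples after EGA, NLRP8 in 8C replicate 2 (2618 CPM) stood apart from the rest, with a gap to the next sample of 0.494 of the whole range on the log2 scale. The samples before EGA and those after it were examined in this way for each member with reads, except TLE6 after EGA, which was 0 throughout. This made 11 groups in all, and chance alone would single out a sample in about 0.05 of such groups. The 10 samples span 5 stages, and 8C replicate 1 held 78.0 CPM of NLRP8.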

How the results depend on the processing

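The effect of stage on the 5 tested members, and the lower NLRP8 and NLRP9 after EGA, kept their calls in every alternative run. Without the filter on low counts, 6 members and 7075 loci were called across EGA. From 4C to 8C the 5 calls became 2 with the compared stages alone and 3 to 5 when a sample was left out (3 without 8C replicate 1). Loci called at that step were 1297 with the stages alone and 1993 to 3707 with a sample left out (2042 and 1993 without 4C replicate 1 or 2). From 8C to 16C 1 member (NLRP8) was called by DESeq2 and 0 to 1 with a sample left out. Loci called from 8C to 16C, 83 in the reported fit, were 55 when scaled by total reads, 0 by edgeR, 152 by DESeq2, 0 with the stages alone and 6 to 758 with a sample left out (758 without 8C replicate 1). In 2C against MII 137 loci became 551 when scaled by total reads (541 higher and 10 lower, against 116 and 21), 44 by edgeR, 381 by DESeq2, 0 with the stages alone and 16 (without MII replicate 2) to 332 (without 8C replicate 2) with a sample left out. In 4C against 2C 0 loci became 14 without the filter, 1 by DESeq2 and 0 to 10 with a sample left out (10 without 2C replicate 2). In 4C against MII 839 loci became 398 by edgeR, 176 with the stages alone and 29 (without 4C replicate 1) to 1187 with a sample left out, and 1 member (PADI6) was called with a pseudocount of 5.

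Small differences changed sign, none of them called. In 4C against 2C, NLRP5 went from 0.02 to -0.0078 with TMM factors, -0.11 with total reads and -0.078 with edgeR. With a sample left out NLRP5 ranged from -0.40 (without 4C replicate 1; -0.26 without 2C replicate 1) to 0.43, NLRP9 from -0.58 to 0.38 (without 2C replicate 1; 0.03 without 4C replicate 1), PADI6 from -0.29 (without 4C replicate 1; -0.02 without 2C replicate 2) to 0.67, and OOEP from -0.14 (without 2C replicate 2) to 1.66. The reported values were -0.10 for NLRP9, 0.19 for PADI6 and 0.76 for OOEP. OOEP in 4C against MII turned to 0.14 with total reads. The cause of these changes was not tested.

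Same-numbered samples share only a number: over 28 pairs of stages their deviations correlated between -0.26 and 0.13, with 1 pair over 0.1. With the replicate block 44 loci were called from 8C to 16C and 4 members from 4C to 8C (NLRP5 lost its call), and no other count of calls moved by over 1.5 times. A sample left alone in its stage was assumed to vary like the others. With 2 samples a stage and few reads, differences of OOEP, PADI6 and TLE6 among the samples after EGA were not detectable at this depth. Levels per coding length were not run, since no coding lengths were given.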
